A study of Homo sapiens with 6 samples.

Results

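Clusters recovered with both wild-type Rbfox1 and Rbfox1 F125A are described here, each set beside its partner from the other form. A cluster is a stretch of intron covered by sequenced RNA fragments. Of 184975 different F125A clusters that name 1 gene, 157746 shared at least 1 nt on the same chromosome and strand with a wild-type (WT) cluster, and these are called shared clusters. That is 85.3% of the F125A clusters that could have met the rule, and the share is itself what the rule counts. The WT list holds 366429 different clusters, of which 162486 overlap a shared cluster, and the 2 lists together hold 554456. The clusters were selected on their measured places, by that overlap with WT, so shares with a partner and overlaps are given as descriptions.

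All RNA came from HEK293 Flp-In cells, an embryonic kidney line with 1 recombination site that takes up a transgene. Every group has the same Rbfox2 knockout, labelled KO#7, and where that number is a clone it is a single one. Of the groups, 3 samples carried FLAG-Rbfox1 WT, 2 carried FLAG-Rbfox1 F125A, and 1 sample without a transgene was not analysed here. The complexes of Rbfox1 with LASR, the large assembly of splicing regulators, were purified, and the RNA that remained in them after nuclease treatment was sequenced. Nothing in the labels ties the samples to separate cultures. Each Rbfox1 group has 1 cluster list, which carries no read counts, so depth is unknown and no value has a replicate error or a test. The WT group has more libraries and the longer list, and the part of library number or depth in the values was not tested. All intervals are exact 95% binomial (Clopper-Pearson) intervals over clusters, which cover counting error only.

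Rbfox proteins hold a single RNA recognition motif, which binds the RNA pentamer GCAUG, most tightly after a U, and they change the splicing of nearby exons. F125A replaces a phenylalanine of that domain with alanine. In LASR, Rbfox is joined by hnRNP M, known to bind GU-rich RNA, hnRNP H, known to bind runs of G, hnRNP C, known to bind runs of U, and by other proteins that include Matrin3, NF45 (ILF2) and DDX5.

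The sequences of shared clusters could be read where they lay wholly inside RefSeq's windows around gene starts (GRCh38.p14, 250 bases before to 50 after each of 34943 starts). This was the case for 695 shared clusters, 0.441% of them. They lie next to annotated starts and are rich in GC, so their shares describe only these clusters. Of the pairs in these windows, 11 had the same ends in both lists and lay upstream of a start of their own gene. Of these 11, 5 held GGGG, 2 held GTGTG and 0 held GCATG. The 5 with GGGG are shown, and after them the 2 lowest in GC. They are written 5′ to 3′ on the transcribed strand, and capitals mark runs of at least 4 G and the G/T repeat GTGTG.
CDK2AP1, chr12:123271257-123271293, minus strand: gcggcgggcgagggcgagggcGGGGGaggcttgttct
TMEM87A, chr15:42273124-42273164, minus strand: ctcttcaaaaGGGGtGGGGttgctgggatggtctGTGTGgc
CARM1, chr19:10872324-10872363, plus strand: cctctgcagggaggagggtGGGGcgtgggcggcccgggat
DCUN1D4, chr4:51843475-51843516, plus strand: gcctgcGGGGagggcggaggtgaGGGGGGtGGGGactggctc
TUBB, chr6:30721585-30721625, plus strand: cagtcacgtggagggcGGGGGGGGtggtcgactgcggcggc
SPRY2, chr13:80339774-80339841, minus strand: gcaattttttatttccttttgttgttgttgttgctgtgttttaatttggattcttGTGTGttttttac
MEIS2, chr15:37098747-37098808, minus strand: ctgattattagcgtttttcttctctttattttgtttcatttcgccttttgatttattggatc
CDK2AP1, TMEM87A, CARM1, DCUN1D4 and TUBB each carried at least 1 run of 4 G, and the clusters of SPRY2 and MEIS2 were low in GC (27.9 and 29.0%).

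Shared clusters with the Rbfox pentamer were few, and 3 of them are shown with GCATG in capitals. They lie near starts of FAM107B, of DCTN1, a dynactin subunit, and of TMEM91.
FAM107B, chr10:14532909-14532962, minus strand: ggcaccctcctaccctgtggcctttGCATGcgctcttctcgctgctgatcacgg
DCTN1, chr2:74374683-74374718, minus strand: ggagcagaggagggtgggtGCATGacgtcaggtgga
TMEM91, chr19:41377204-41377256, plus strand: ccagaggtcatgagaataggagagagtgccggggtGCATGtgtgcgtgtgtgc
Each differed from its partner at 1 end or at both. The FAM107B cluster had its 3′ end at the same nucleotide as WT and its 5′ end 6 nt further upstream. The DCTN1 cluster of 36 nt lay inside a WT cluster of 51 nt. In TMEM91 the F125A cluster was 53 nt and its WT partner 71 nt.

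Next, 3 WT clusters that overlap no shared cluster are shown, from CELF1, a splicing regulator, OPRL1, the nociceptin receptor, and TPM3, a tropomyosin. Those of CELF1 and OPRL1 hold 2 copies of GCATG each, again in capitals.
CELF1, chr11:47524825-47524897, minus strand: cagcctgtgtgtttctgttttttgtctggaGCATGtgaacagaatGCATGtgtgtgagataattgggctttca
OPRL1, chr20:64092495-64092571, plus strand: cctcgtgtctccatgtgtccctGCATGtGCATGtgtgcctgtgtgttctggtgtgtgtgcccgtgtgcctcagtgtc
TPM3, chr1:154178344-154178388, minus strand: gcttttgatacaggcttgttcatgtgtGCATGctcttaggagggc
All 3 were picked from WT clusters that hold TGCATG, the pentamer after T. The 3 shared clusters with the pentamer shown above hold TGCATG as well.

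Among the 695 shared clusters in start windows, runs of G were frequent and the Rbfox pentamer was not. GGGG was in 575 of them (82.7%, interval 79.7 to 85.5%), and 424 (61.0%) held at least 2 runs of 4 or more G. All start windows, read at the same places and lengths, held GGGG in 30.4%. GCATG was in 26 shared clusters (3.74%, interval 2.46 to 5.43%), against 4.16% of all windows read in that way. GTGTG was in 117 (16.8%, interval 14.1 to 19.8%), against 5.35% of all windows. TTTTT, a run of 5 T, was in 48 (6.91%), against 6.0% of all windows. CTCTCT was in 2 shared clusters, against 2.59% of all windows. Searches were run on the transcribed strand and, for the reverse complements, on the other strand. TGCATG contains GCATG, and GCATGC holds the pentamer on both strands. A match describes the letters and is neither a site nor a cause.

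The opposite strand gave another picture. CCCC, the complement of the G run, was in 6.76% of the shared clusters and in 29.7% of all windows. CACAC was in 0.863% of the shared clusters and in 5.12% of all windows. In 225 of the 695 the window belonged to a gene on the other strand, and on the cluster's own transcribed strand GGGG was in 77.8% of these (interval 71.8 to 83.0%) and CCCC in 7.11%. In the 440 shared clusters that lay in a window of their own gene, GGGG was in 85.2% and GCATG in 3.18%.

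WT partners held these motifs at nearly the same shares as the shared clusters, and WT clusters without a partner held more of the pentamer and fewer runs of G. Of 713 WT clusters in start windows that overlap a shared cluster, 82.9% held GGGG and 4.21% held GCATG (interval 2.86 to 5.95%). Of 286 WT clusters there that overlap none, 51.0% held GGGG (interval 45.1 to 57.0%) and 31.1% held GCATG (interval 25.8 to 36.8%). TGCATG, the pentamer after T, was in 20.3% of those 286 WT clusters and in 1.58% of the shared clusters. CATGC, the pentamer on the other strand, was in 10.1% of those 286 (interval 6.90 to 14.2%). It was in 1.87% of the shared clusters and in 4.12% of all windows. Mean GC content was 51.6% in the WT clusters without a partner, 65.7% in the shared clusters and 57.5% in all windows, and its part in these shares was not tested. The 159 F125A clusters without a partner held GGGG in 75.5% (interval 68.0 to 81.9%) and GCATG in 2.52% (4 clusters, interval 0.690 to 6.32%). GTGTG was in 10.1% of these 159 (interval 5.86 to 15.8%), against 16.8% of the shared clusters. At least 2 runs of 4 or more G were in 49.7% (interval 41.7 to 57.7%), against 61.0%. These intervals overlap those of the shared clusters, which does not show that the 2 sets are alike.

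**Figure D1:**
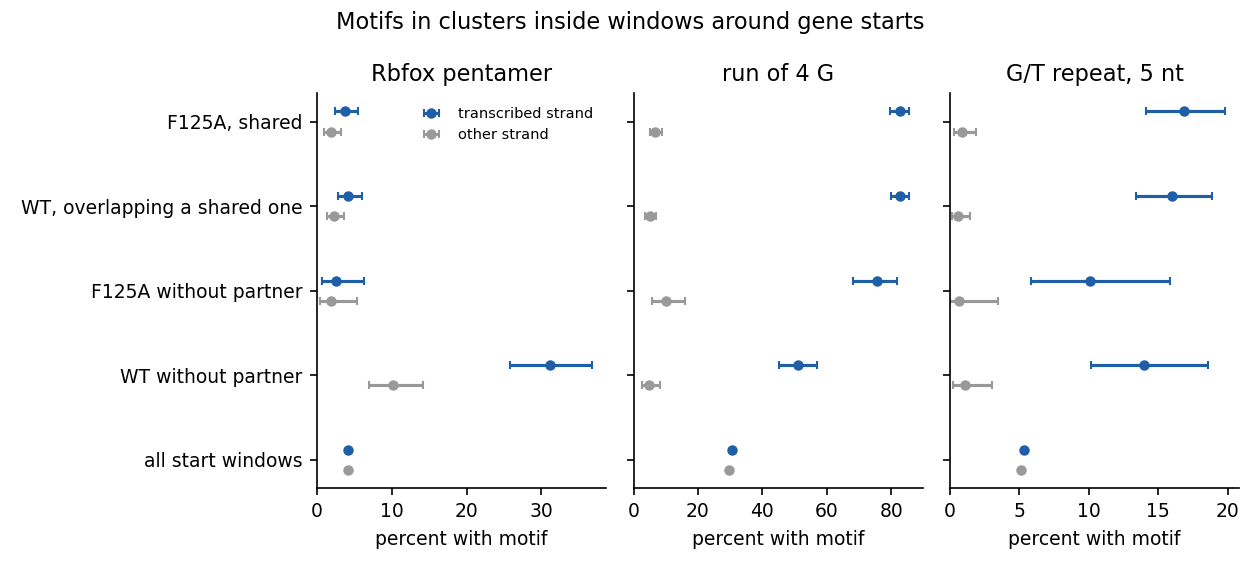
Percent of clusters in windows around gene starts that hold the Rbfox pentamer, a run of 4 G or a G/T repeat of 5 nt, by set of clusters, on the transcribed strand (blue) and the other strand (grey); bars are exact 95% intervals, and all start windows carry none. The pentamer stands at 31.1% in WT clusters without a shared cluster and at 3.74% in shared clusters, while the G run stands at 82.7% in shared clusters and 82.9% in their WT partners.

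The ends of shared clusters differed in base composition from their inside. C made up 15.4% of the bases inside the 695 clusters, and G made up 48.8%. C was the first nt of 287 of them (41.3%, interval 37.6 to 45.1%) and the last nt of 39.7%. It was the nt just after the cluster in 311 of the 607 clusters with 20 nt of window on either side (51.2%, interval 47.2 to 55.3%). WT partners gave 43.5% for the first nt and 51.1% for the nt just after. WT clusters without a partner had C as first nt in 37.8% and just after the cluster in 38.1%, with 14.2% inside. F125A clusters without a partner had it in 39.0% and 53.0%, with 19.1% inside. C was thus more frequent at these places than inside in all 4 sets. The share of C over all start windows was not counted for comparison. At the last nt C led G in shared clusters (G 33.1%), but not in WT partners (36.3% C, 38.7% G). WT clusters without a partner had 27.6% C and 31.5% G there, and F125A clusters without a partner 29.6% and 39.0%. Just before the cluster G led in shared clusters (32.9% against 31.1% C) and WT partners (38.8% against 33.5%). C led there in WT clusters without a partner (35.1% against 25.9% G) and F125A clusters without a partner (34.1% against 31.1%). The nuclease's own preference for bases was not measured here.

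MicroRNA hairpins are the other places where sequence could be read. A hairpin is the folded precursor from which the 5p and 3p mature strands are cut, and those listed here lie in introns of host genes. Of 112 F125A clusters over a hairpin on the same strand, 81 were shared clusters (72.3%, interval 63.1 to 80.4%), below the 85.3% over all single-gene F125A clusters. They lay over 52 hairpins in 44 host genes. In 29 hairpins there were 2 shared clusters and in 23 there was 1, and 11 hairpins lay wholly inside a single shared cluster. The RefSeq hairpins of MIR10A, in an intron assigned to HOXB3, MIR15B, in SMC4, and MIR98, in HUWE1, are shown because F125A and WT clusters changed over at the same nucleotide in each. Lower case is the upstream cluster's side, and capitals begin at the first nt of the downstream cluster.
MIR10A, chr17:48579838-48579947, minus strand: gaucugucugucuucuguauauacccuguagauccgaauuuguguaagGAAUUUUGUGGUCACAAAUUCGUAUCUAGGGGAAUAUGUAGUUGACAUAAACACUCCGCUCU
MIR15B, chr3:160404588-160404685, plus strand: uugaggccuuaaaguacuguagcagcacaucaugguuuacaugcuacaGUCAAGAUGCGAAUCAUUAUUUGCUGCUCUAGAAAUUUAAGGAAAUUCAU
MIR98, chrX:53556223-53556341, minus strand: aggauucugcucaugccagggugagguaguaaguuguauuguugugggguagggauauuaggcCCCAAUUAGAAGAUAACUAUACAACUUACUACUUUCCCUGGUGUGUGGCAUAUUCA
In MIR10A the border stood at hairpin position 49, counted from 1 at the hairpin's 5′ end, and the downstream clusters of both lists had the same 2 ends. In MIR15B it also stood at position 49 and in MIR98 at position 64. All 3 borders lie between the mature arms, 4 nt after the end of the 5p arm in MIR10A, 7 nt in MIR15B and 20 nt in MIR98.

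The mature strands of hairpins with shared clusters include several with the same seed, bases 2 to 8, which pairs with target RNAs. The following are shown with the seed in capitals.
hsa-miR-10a-5p: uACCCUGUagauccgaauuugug
hsa-miR-15b-5p: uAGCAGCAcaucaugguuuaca
hsa-miR-16-5p: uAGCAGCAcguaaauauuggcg
hsa-miR-98-5p: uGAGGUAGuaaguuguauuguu
hsa-let-7g-5p: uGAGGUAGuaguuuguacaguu
hsa-let-7f-5p: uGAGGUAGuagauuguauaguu
hsa-miR-103a-3p: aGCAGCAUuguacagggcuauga
hsa-miR-107: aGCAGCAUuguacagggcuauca
hsa-miR-218-5p: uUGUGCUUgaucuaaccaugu
hsa-miR-423-5p: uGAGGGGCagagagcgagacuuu
miR-15b-5p and miR-16-5p, both from SMC4, share AGCAGCA. miR-98-5p, let-7g-5p and let-7f-5p share GAGGUAG, and MIR98 and MIRLET7F2 lie in the same host gene, HUWE1. miR-103a-3p, cut from hairpins in PANK2 and PANK3, and miR-107, from PANK1, share GCAGCAU, so 3 genes of the pantothenate kinase family carry shared clusters over hairpins of 1 seed. miR-218-5p came from hairpins in SLIT2 and SLIT3, both genes of Slit guidance proteins.

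In the 52 hairpins with a shared cluster, clusters that touch, with no nt between them, gave a border in 21 for F125A and in 26 for WT. Other hairpins were not searched for borders. Of the 21 F125A borders, 17 lay between the arms (81.0%, interval 58.1 to 94.6%), 0 to 20 nt after the 5p arm with a median of 5 nt. In WT, 15 of the 23 borders in hairpins with both arms annotated lay between the arms (65.2%, interval 42.7 to 83.6%), at a median of 7 nt after the 5p arm. The intervals overlap. Both lists had a border in 15 hairpins. It stood at the same nt in 3 of them and within 1 nt in 6, the others being MIR103A1, MIR218-1 and MIR423. The borders were within 5 nt in 9 hairpins and over 15 nt apart in 5. MIR26A2, MIR33A and MIR652 were the farthest apart, at 34, 36 and 38 nt.

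**Figure D2:**
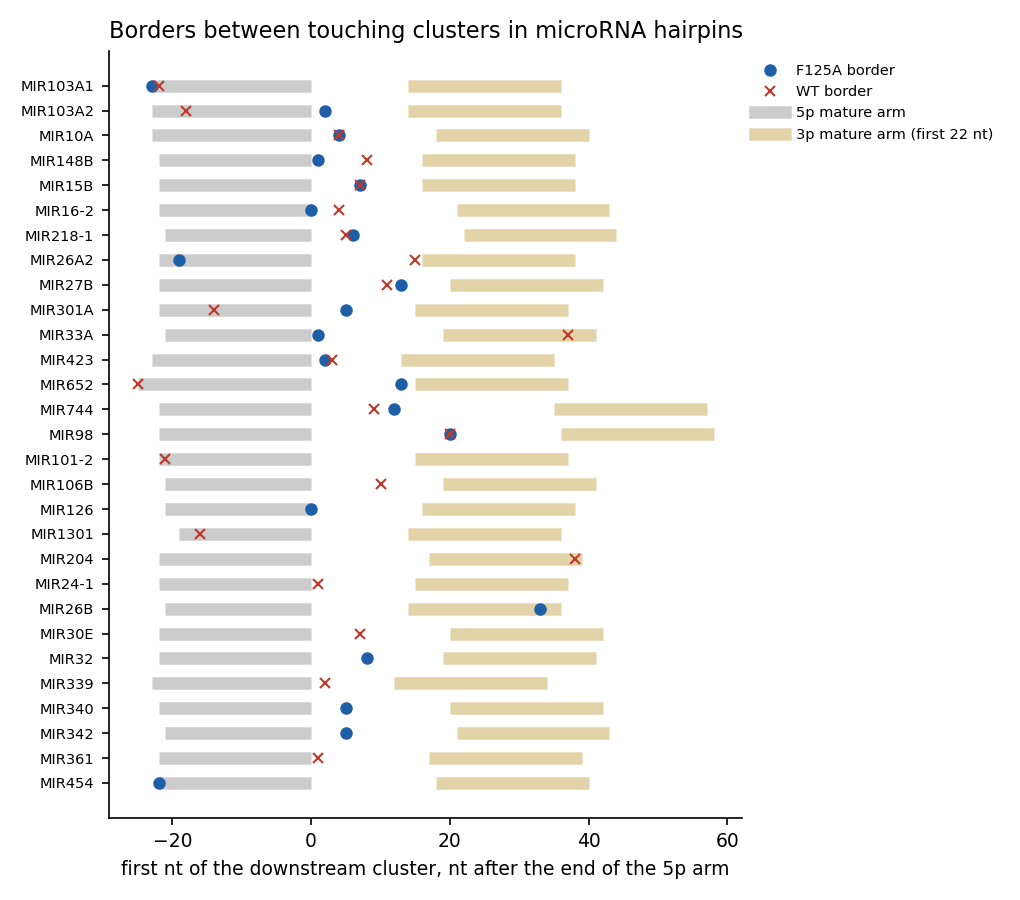
Borders between touching clusters in microRNA hairpins with a shared cluster and both arms annotated, in nt after the end of the 5p mature arm. Circles are F125A borders, crosses are WT borders, and bars mark the 5p arm and the first 22 nt of the 3p arm. Of the F125A borders, 17 of 21 lie between the arms, and circle and cross coincide in MIR10A, MIR15B and MIR98.

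In the shared clusters over hairpins, the 5′ end was the same as in WT in 8 of 81 (9.88%, interval 4.36 to 18.5%) and the 3′ end in 10 (12.3%, interval 6.08 to 21.5%). Both intervals include the shares over all shared clusters, 14.2% and 15.1%.

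Across all 157746 pairs, the ends of the F125A cluster and its WT partner were mostly a few nt apart. The partner is the WT cluster that shares most nt with the F125A cluster. The 5′ ends were the same in 14.2% of pairs (22419), within 5 nt in 55.9% and over 30 nt apart in 9.68%. The 3′ ends were the same in 15.1% (23822), within 5 nt in 57.6% and over 30 nt apart in 9.35%. The median distance was 4 nt at either end. An offset of 1 nt was about equally frequent in both directions at the 5′ end, with 6.60% of F125A ends 1 nt upstream and 7.36% 1 nt downstream. At the 3′ end 8.91% stood 1 nt upstream and 7.64% 1 nt downstream.

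**Figure D3:**
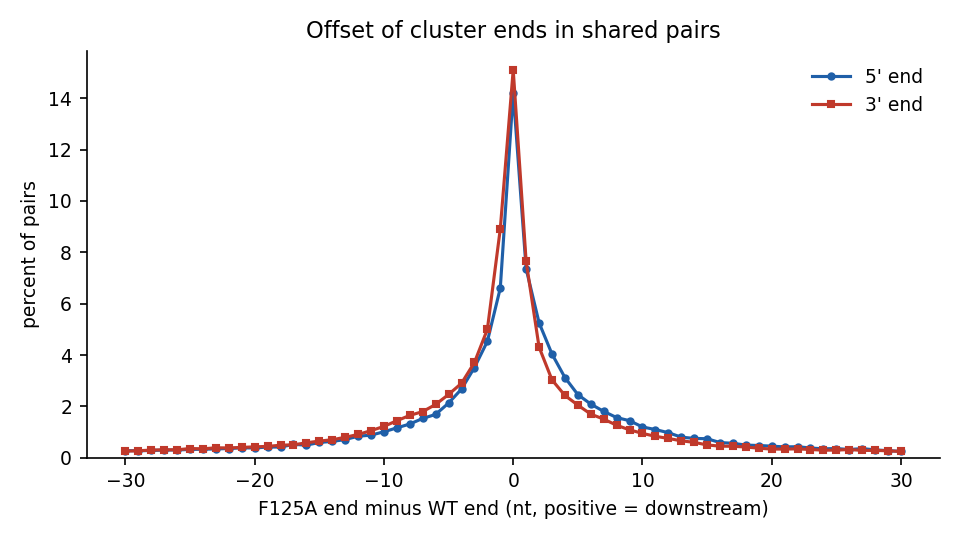
Percent of the 157746 pairs at each offset from -30 to 30 nt, F125A end minus WT end on the transcribed strand, for 5′ ends (blue circles) and 3′ ends (red squares). Both peak at 0 nt, at 14.2% and 15.1%. In all, 45.6% of 5′ ends lie downstream and 40.2% upstream, and 39.1% of 3′ ends lie downstream and 45.8% upstream.

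Where the ends differed, F125A ends lay more often inside the WT cluster than outside it. The F125A 5′ end was downstream of the WT end in 45.6% of pairs and upstream in 40.2%. The F125A 3′ end was upstream in 45.8% and downstream in 39.1%. In 34.5% of pairs the F125A cluster lay inside the WT cluster with at least 1 end shorter, and in 27.6% the WT cluster lay inside the F125A cluster. Shifts of both ends the same way were about equally frequent, 17.5% downstream and 18.0% upstream.

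Both ends were the same in 3755 pairs (2.38%). Of these, 197 came from a stretch of rows that is identical in both lists and covers shared clusters of MATR3 (80), TBCE (48), PINX1 (41), HERC3 (11), ST6GALNAC6 (11) and MKKS (6). The stretch runs over 5433 rows with 3249 different clusters. Its other clusters are the 3052 that name several genes, which the rule drops from F125A. Without it, 3558 of 157549 pairs had the same ends (2.26%), with a median length of 53 nt. Also without it, 3558 of 22222 pairs with the same 5′ end had the same 3′ end (interval 15.5 to 16.5%), against 23625 of all 157549 (interval 14.8 to 15.2%). The longest pairs with both ends the same were 215 nt in C7orf50 (chr7:1016009-1016223), 178 nt in TBCD, a tubulin folding cofactor (chr17:82849867-82850044), and 155 nt in DCUN1D4 (chr4:51872687-51872841).

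Shared clusters had a median length of 63 nt (quartiles 50 and 80, range 16 to 331), and their WT partners one of 64 nt (quartiles 51 and 82). The F125A cluster was the longer of the pair in 44.4%, the WT cluster in 50.8%, and both were equal in 4.78%. The length difference, F125A minus WT, had a median of -1 nt, with quartiles of -10 and 8 nt. It was 10 nt or less in either direction in 53.5% of pairs and over 50 nt in 5.72%. Library selection for inserts of 20 to 80 nt, per the labels' protocols, acted on single fragments and not on clusters.

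**Figure D4:**
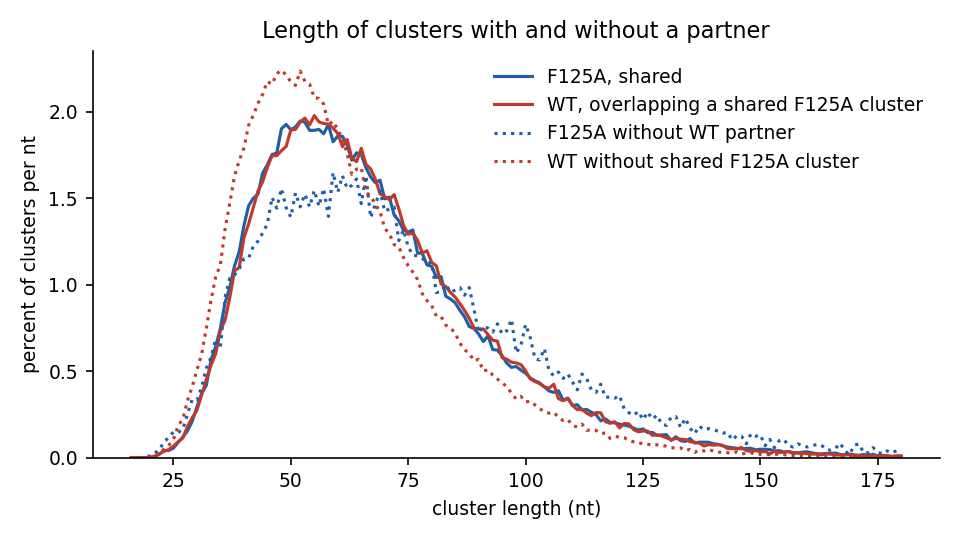
Distribution of cluster length, as percent of clusters at each nt from 16 to 180, for F125A (blue) and WT (red). Solid curves are shared clusters and the WT clusters that overlap them. Dotted curves are single-gene F125A clusters without a partner and the remaining WT clusters. The dotted WT curve includes several-gene clusters, which the rule drops from F125A. The solid curves lie on each other, with medians of 63 nt each, while WT clusters without a shared cluster are shorter (median 57 nt) and F125A clusters without a partner are longer (median 68 nt).

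Length set clusters with and without a partner apart in opposite directions in the 2 lists. The 27229 F125A clusters without a partner had a median of 68 nt (quartiles 52 and 90). The 203943 WT clusters that overlap no shared cluster had a median of 57 nt (quartiles 46 and 73). They include several-gene clusters, which the rule drops from F125A. By length, 87.9% of F125A clusters of 40 to 59 nt had a partner, 78.7% of those of 100 nt to under 150 nt and 70.8% of those of 150 nt or more (interval 68.9 to 72.7%). Clusters under 40 nt had one in 84.3%.

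The shared nt covered most of both clusters. The overlap had a median of 55 nt, which was 96.1% of the F125A cluster and 94.0% of the WT partner at the median. In 93.6% of pairs it was at least 50% of both clusters. At the edge of the rule, 186 shared clusters had a best overlap of 1 nt and 166 one of 2 nt. Just outside it, 293 F125A clusters without a partner touched a WT cluster with no nt between, and 200 lay 1 nt away. Of the F125A clusters without a partner, 71.7% lay within 1000 nt of a WT cluster on the same strand.

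Pairs were mostly exclusive. In 136714 pairs (86.7%) the F125A cluster overlapped 1 WT cluster and that WT cluster overlapped 1 shared cluster. A further 11545 shared clusters overlapped 2 WT clusters, 762 overlapped 3, 31 overlapped 4 and 1 overlapped 5. That last one is a cluster of 166 nt in C7orf50 (chr7:1011376-1011541). Shared clusters over several WT clusters had a median of 79 nt and exceeded their partner by a median of 10 nt. In the other direction, 7601 WT clusters overlapped 2 shared clusters, 393 overlapped 3 and 13 overlapped 4. In ENAH, an actin regulator with an exon that Rbfox proteins regulate, a WT cluster of 111 nt (chr1:225642781-225642891) was the best partner of shared clusters of 61, 18 and 28 nt and overlapped 4 in all.

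Some of the largest length differences lay at single places. F125A was longer by 191 nt in SYK, a tyrosine kinase of immune receptors (276 against 85 nt), and by 185 nt in LSM14A, a P-body protein (229 against 44 nt). WT was longer by the most in GRID1, a glutamate receptor subunit (42 against 274 nt), FAM171A1 (122 against 322 nt) and SNPH (30 against 228 nt). The partner of the SYK cluster was 1 of 3 WT clusters under it, and the WT partner in SNPH overlapped 3 shared clusters. The WT partners in GRID1 and FAM171A1 overlapped 2 shared clusters each, and the F125A cluster in GRID1 overlapped 2 WT clusters.

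F125A clusters also touched one another, and their borders were set beside WT. Of 9725 such borders, 8542 lay between 2 shared clusters. A WT border stood at the same nt in 12.7% of these and within 5 nt in 45.4%. In 78.4% the F125A border fell inside a single WT cluster. An F125A 5′ end had its WT partner's end at the same nt in 14.6% when it touched another F125A cluster (interval 13.9 to 15.4%) and in 14.2% when it was free (interval 14.0 to 14.4%).

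Shared clusters were spread over 10077 of the 10660 genes with an F125A cluster, with a median of 7 per gene, and the 100 genes with most held 12.9% of them. The 583 genes with no shared cluster had at most 5 F125A clusters each. Most lay in AUTS2, a neurodevelopmental gene, with 602 shared of 631 F125A clusters. TTC28 followed with 452 of 495, and SLIT2, a guidance protein and host of MIR218-1, with 447 of 476. PRKG1, a cGMP-dependent kinase, had 381 of 408, and ERBB4, a receptor tyrosine kinase, 372 of 414. ERC1 had 364 of 398, PTPRG, a receptor phosphatase, 352 of 375, and SDK1, an adhesion protein, 326 of 357. IMMP2L, of the mitochondrial inner membrane peptidase, had 316 of 367, and MECOM, a transcription factor, 309 of 321. Of the WT clusters in AUTS2, 632 of 1463 (43.2%) overlapped a shared cluster, and in ERC1 376 of 619 (60.7%), against 44.3% of all WT clusters.

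Among 2673 genes with at least 20 F125A clusters, the share with a WT partner had a median of 87.0% (quartiles 81.8 and 91.2%). It was 100% in 54 genes and under 70% in 97. SMAD6, an inhibitor of BMP signalling, had 62 of 62, TRAPPC10, a vesicle tethering subunit, 52 of 52, and HMGA2, a chromatin protein, 43 of 43. SMOC1 had 41 of 41, and BANP and CLOCK, the circadian transcription factor, 39 of 39 each. TBCE (48 of 48) and PINX1 (41 of 41) belong here too, with every shared cluster from the identical stretch. The lowest shares were in WNK2, a kinase, with 12 of 26, and ASNS, asparagine synthetase, with 12 of 25. XPOT, the tRNA exporter, had 20 of 39, FASN, fatty acid synthase, 14 of 27, and CEP290, a ciliary protein, 15 of 28. PPP1R12C had 13 of 24, TCOF1, a nucleolar protein, 11 of 20, and DDR2, a collagen receptor, 16 of 29. With so few clusters the intervals are wide, 26.6 to 66.6% for WNK2 and 31.5 to 76.9% for TCOF1.

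Pairs with both ends the same were most frequent in CD55, a complement regulator, with 5 of 25 pairs, among the genes with at least 20 pairs outside the identical stretch. PRR12 had 4 of 27. CEP250, HOXB6 and SNX24 had 3 of 20 each, and CLEC16A, PPIH and RANBP3 3 of 21 each. The median over the 2285 genes was 1.87%. By median length difference, F125A was longer in 615 of these genes and WT in 1267, and 403 were at 0 nt. GDI2, a regulator of Rab GTPases, stood highest at 17 nt, with RBBP6 at 11 nt, GCN1 at 10 nt, and IVNS1ABP and SMG1, a kinase of nonsense-mediated decay, at 9 nt each. TRAPPC8 stood lowest at -13 nt, with CALM2, a calmodulin gene, KCNB2, a potassium channel, and STX7, a syntaxin, at -11 nt each and CEP250 at -10 nt.

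The share with a partner rose with gene length, together with the number of WT clusters available. In the 10% shortest genes (up to 8.638 kb) 74.3% of F125A clusters were shared (interval 72.8 to 75.7%), with 1.09 WT clusters per F125A cluster. In the 10% longest (from 211.538 kb) 88.9% were shared (interval 88.7 to 89.2%), with 2.28 WT clusters per F125A cluster. F125A was the longer of the pair in 51.6% in the shortest genes and in 42.7% in the longest. The same 5′ end was found in 13.5% and 14.4%. The part of the ratio of WT to F125A clusters in this rise was not tested.

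**Figure D5:**
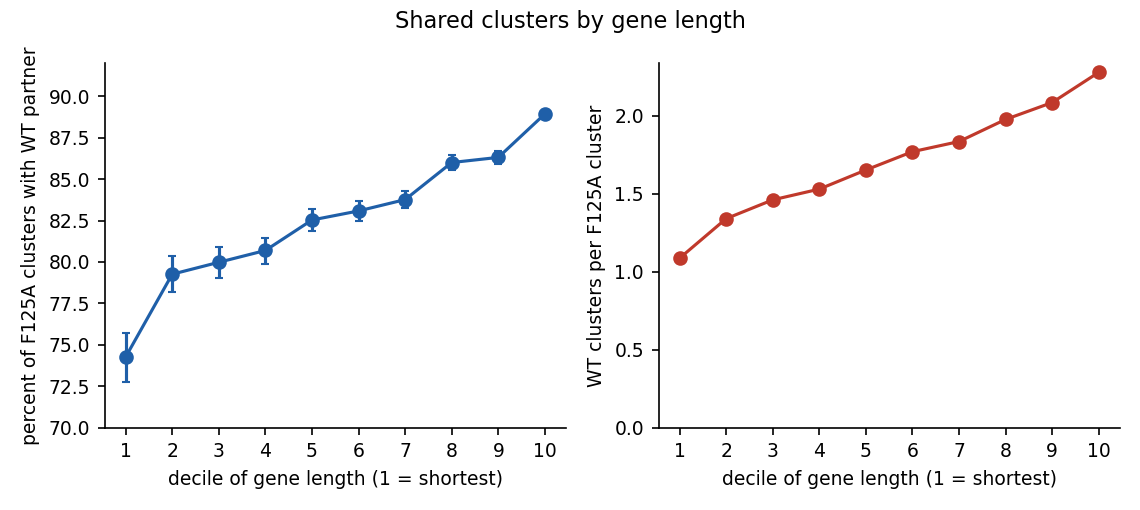
Share of F125A clusters with a WT partner (left, exact 95% intervals, axis from 70%) and WT clusters per F125A cluster (right) in 10 equal groups of genes by length. Both rise from the shortest group (74.3%, 1.09) to the longest (88.9%, 2.28).

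Place in the gene also set shares apart. Within 1 kb of the gene start 81.9% of F125A clusters were shared, and within 5 kb of the gene end 74.5%, against 85.3% at any place. In genes below 30 kb, between 30 and 100 kb and above 100 kb, the share near starts was 79.5, 83.0 and 86.2%. These are close to the shares at any place of those genes, 79.3, 83.7 and 87.7%. Near gene ends the shares were 74.4, 75.4 and 72.4%. In the first 10% of the gene 86.9% were shared and in the last 10% 78.3%. The order of the first and last 10% was kept in each class of gene length: 80.6 and 70.5% below 30 kb, 85.2 and 76.8% between 30 and 100 kb, and 89.2 and 80.6% above 100 kb. By chromosome the share ran from 82.2% on chromosome 16 to 87.4% on chromosome 10. The median length difference was -1 nt on 18 chromosomes and 0 nt on the other 5. The same 3′ end was more frequent than the same 5′ end on 22 of 23.

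Genes of the complex itself and of its targets were read from lists. The introns of LASR subunit genes held 319 shared of 367 F125A clusters (86.9%), and 239 of 287 without the identical stretch (83.3%, interval 78.4 to 87.4%). Over all genes the share was 85.3%, which lies inside that interval. HNRNPC had 90 of 103, HNRNPM 36 of 38 and HNRNPH1 33 of 40. MATR3 had 95 of 102, of which 80 come from the identical stretch. ILF2 and DDX5 had 6 of 11 and 4 of 9. Outside the stretch the list had the same 5′ end in 11.7% (interval 7.93 to 16.5%) and the same 3′ end in 16.7% (interval 12.2 to 22.1%), and both intervals include the shares over all 157549 pairs outside it (22222 and 23625 pairs).

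The Rbfox genes had 219 shared of 233 F125A clusters (94.0%, interval 90.1 to 96.7%), against 85.3% over all genes and 88.9% in the longest 10% of genes. With an overlap of at least 50% of both clusters the share was 87.6%, against 79.8% over all genes. RBFOX2, a gene of 290.1 kb, which the labels give as knocked out, had 207 of 221, so its introns were still recovered. The lists cover introns only and do not check the knockout. RBFOX3 had 9 of 9 and RBFOX1 3 of 3. The median length difference in this list was -2 nt, with F125A longer in 39.3%.

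Genes known for exons that Rbfox proteins regulate had 1118 shared of 1281 F125A clusters (87.3%, interval 85.3 to 89.1%), against 85.3% over all genes. The share was 86.3% in genes of 122.455 to 211.49 kb and 88.9% in the longest 10%, both inside that interval. ENAH, TCF7L2 and EPB41L2 of this list measure 167.1, 217.4 and 223.9 kb, and PTBP2 measures 102.0 kb. In genes of 82.478 to 122.45 kb the share was 86.0%. The part of gene length in the share of this list was not tested. ENAH had 163 of 178, TCF7L2, a Wnt pathway transcription factor, 162 of 173, EPB41L2, a membrane skeleton protein, 142 of 159, and PTBP2, the neuronal polypyrimidine tract binding protein, 139 of 156. Among genes of this list with at least 20 F125A clusters, the lowest shares were those of EPB41 (22 of 35) and ECT2 (17 of 25). Of the genes with fewer, FN1 had 0 of 1, MBNL2 6 of 11, FMNL3 10 of 17, DMD 8 of 11, TSC2 13 of 16 and SLC25A3 8 of 8. Over the whole list, the same 5′ end was found in 12.3% of pairs (interval 10.4 to 14.3%) and the same 3′ end in 13.8% (interval 11.8 to 15.9%). Both intervals include the shares over all pairs, 14.2% and 15.1%.

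Other splicing regulators had 1052 shared of 1254 (83.9%, interval 81.7 to 85.9%), and the 85.3% over all genes lies inside that interval. QKI had 88 of 100, CELF2 87 of 96, RBM39 71 of 82 and CELF1 62 of 70. Cytosolic ribosomal protein genes, which are short and highly transcribed, had 415 of 569 (72.9%, interval 69.1 to 76.5%), with 1.03 WT clusters per F125A cluster. That is near the 74.3% of the shortest 10% of genes, and the part of gene length was not tested. RPL5 had 22 of 32, RPS19 16 of 22, RPS24 13 of 17 and RPL3 11 of 18. Of 16 marker genes of other tissues, SNAP25 alone had F125A clusters, and all 3 were shared.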

How the data were processed

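Nuclease-protected RNA of purified FLAG-Rbfox1/LASR complexes was sequenced. The submitters' processing notes name cutadapt, STAR and hg38 with no version. Not given in the sources used here are the cluster caller, its threshold, the treatment of the control and the pooling of libraries. The authors deposited 1 list per Rbfox1 group with chromosome, start, end, gene, region and strand, whose values have no unit other than nt. Groups follow the sample titles.

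Starts were read as 0-based, since touching clusters then leave gaps of 0 nt (9725 in F125A, against 970 of 1 nt), and are printed 1-based. Repeated rows (4851 in F125A, 7029 in WT) and 3052 several-gene F125A clusters were dropped. WT clusters with several genes could be partners. Gene lengths and starts come from RefSeq GRCh38.p14 (10584 of 10660 names matched by symbol, 71 by synonym). Start windows and hairpins are of that build too. Python 3.11.15, pandas 2.3.3 and scipy 1.17.1 were used, and the overlap code was tested on simulated lists.

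Named genes are the 10 with most shared clusters, the 8 highest and 8 lowest shares, the 8 highest shares of pairs with both ends the same, the 5 extremes of length difference in each direction, up to 4 genes of each list, and the extreme pairs, of which some are not reported here. Some genes and clusters shown were picked after their values were seen. These are EPB41, ECT2, FN1, MBNL2, FMNL3, DMD, TSC2, SLC25A3, ILF2, DDX5, HNRNPH1 and the printed sequences. The shared clusters and the gene lists were chosen with earlier results of these data known.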

Additional observations from a re-analysis of the deposited data

How the results depend on the processing

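Of 65 alternative values, 39 moved by less than their interval or not at all, 26 moved further and 0 reversed. Requiring an overlap of at least 50% of both clusters gave 79.8% with a partner, 14.9% with the same 5′ end, 15.8% with the same 3′ end and 2.54% with both. It also gave 99.98% exclusive pairs, which counts among the 26. That value is nearly fixed by the setting, because separate clusters can hardly each cover 50% of the same cluster. Leaving out the identical stretch gave 2.26% with both ends the same. Exclusive pairs alone gave 15.3, 16.3 and 2.75% for 5′, 3′ and both ends, with F125A longer in 43.1%. Merging clusters closer than 50 nt gave 13.2, 14.2 and 2.13%, a median length difference of -2 nt, F125A longer in 39.4% and 96.3% exclusive pairs. Genes with at least 20 F125A clusters gave 87.2% with a partner and 85.8% exclusive pairs. Keeping repeated rows gave 2.49% with both ends the same and 84.0% exclusive pairs. With 20 nt added on each side, chosen after seeing the data, GCATG was in 5.60% and GGGG in 88.5% of shared clusters in start windows. Overlap on either strand gave the same 157746 pairs, so it could change none of the pair values, and its unchanged values count among the 39. Merging was not run for the motif shares.

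No paired analysis was possible because there is 1 list per group, without replicate columns. Leaving out a replicate was not run for want of such columns. Depth is unknown, so a cluster missing from a list was not detected there, which does not show that it is absent.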
